A study of Homo sapiens with 4 samples.

Results

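The 46 genes described here encode the machinery that copies DNA and the enzymes and regulators that work in S phase. They were taken by symbol through GENCODE release 29 from a fixed list, which was chosen with earlier results of these data known. All 46 were found among the 57500 genes counted in each library. They also passed the filter on low counts, which 22511 genes passed. RNA-sequencing covered 4 libraries of SUM159, a line of metaplastic triple-negative breast cancer cells. They were 1 library of parental cells and 3 libraries of NOS2KO cells, 1 for each of the clones numbered 1, 5 and 6. The NOS2KO cells had received a double nickase plasmid aimed at NOS2, the gene of the inducible nitric oxide synthase iNOS, followed by puromycin. The clones kept were those judged knocked out from their iNOS protein and the nitrite and nitrate they made. Each NOS2KO library therefore came from 1 clone, and effects of the knockout and of the picking of single clones cannot be told apart. Both groups are SUM159 cells with no drug or time course given in the labels. The series asked how targeting NOS2 changes gene expression, and the comparison made here is NOS2KO against parental.

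DNA is copied from origins where the ORC, CDC6 and CDT1 proteins load the MCM2 to MCM7 ring in G1. At the start of S phase, MCM10, CDC45 and the GINS complex turn that ring into an active helicase, after which polymerases, the PCNA clamp, its RFC loader, RPA, FEN1 and LIG1 copy and join the strands, fed by nucleotides from RRM1, RRM2, TYMS and TK1. E2F factors, held back by the retinoblastoma proteins, switch on many of these genes as cells leave G1, and the group is widely read as a measure of proliferation in breast cancer cells.

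NOS2 mRNA was counted 2 times in parental cells, 3 times in clone 1, 18 times in the library labelled 5 and 1 time in clone 6. Since 3 of the 4 values did not exceed a floor of 3 counts, NOS2 mRNA did not check the labels, and it was higher in the library labelled clone 5 than in the parental library. Counts on genes came to between 90467395 and 122171287 per library. The mesenchymal markers VIM, FN1, CD44, CDH2 and AXL were present in all 4 libraries (each at 109 CPM or more), and ESR1, PGR, CDH1 and EPCAM, which triple-negative mesenchymal cells lack, were at 0.741 CPM or less. ERBB2 was at 48.3 to 106 CPM and the endothelial marker PECAM1 at 7.06 to 16.1 CPM. PTPRC, a gene of blood cells, moved with the groups, at 4.45 CPM in parental cells against 68.4 in clone 1, 105 in the library labelled 5 and 41.7 in clone 6. Of 7 other blood cell markers looked at after PTPRC was seen (CD3E, CD3D, CD79A, MS4A1, SPI1, TYROBP and LYZ), none exceeded 0.460 CPM, their summed level was 0.357 to 1.07 CPM, and 0 to 3 of the 7 were at 0 in each library. The part of other cells in the results below was not tested. CPM is the usual depth-scaled count of a gene, taken here relative to the TMM-scaled library size.

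Most of the 46 genes were higher in the NOS2KO clones than in the parental library. Higher levels in all 3 clones were seen for 32 of the 46 (69.6%), against 28.6% of all genes tested. Lower levels in all 3 clones were seen for 4 (8.70%), against 30.5% of all genes tested, and these were CDC6, ORC6, POLD3 and RPA2. The other 10 were higher in some clones and lower in others. The median log2 fold change of the 46 was 0.64, beside 0.10 for all genes tested and -0.04 for the 10709 genes that reached 10 CPM in a library. The values come from bulk RNA, so a larger share of cells in S phase and more of these RNAs per cell cannot be told apart.

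The size of the difference varied between the clones. The median member lay 0.92 above parental on the log2 scale in clone 1, 0.47 in the library labelled 5 and 0.36 in clone 6, beside -0.07, 0.03 and 0.00 for all genes tested. Of the 46 genes, 37 had their highest level of the 4 libraries in clone 1, against 25.2% of all genes tested and 29.8% of the genes that reached 10 CPM in a library. In clone 1, 20 of the 46 were over 1 on the log2 scale above parental, against 17.1% of all genes tested. This held for 11 in the library labelled clone 5, against 21.3%, and for 9 in clone 6, against 19.3%, so that in these libraries the share of the 46 genes (23.9% and 19.6%) was near that of all genes tested. Against the genes that reached 10 CPM in a library, of which 10.65% and 11.06% were so far above parental in these libraries, it was higher. No member was over 1 on the log2 scale below parental in any clone, against 20.2% of all genes tested in clone 1, 14.7% in the library labelled 5 and 16.7% in clone 6. Among the genes that reached 10 CPM in a library these shares were 11.7%, 12.6% and 12.3%. The lowest member value was a log2 ratio of -0.997 for RPA2 in clone 6.

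The library labelled clone 5 and clone 6 were close to each other. Between them no member differed by more than 1 on the log2 scale, while 21.0% of all genes tested did, and the median member was 0.11 higher in the library labelled clone 5. For this pair the share among genes that reached 10 CPM in a library was not taken. In the library labelled clone 5, 10.65% of those genes were over 1 above parental, against 21.3% of all genes tested. Clone 1 exceeded the library labelled clone 5 in 40 of the 46 genes, by a median of 0.58, and exceeded clone 6 in 42, by a median of 0.62. Each of these comparisons is 1 library against 1, with no replicate check. Of the 39 members with a fitted log2 fold change above 0, 4 (MCM2, MCM7, CDT1 and PRIM2) were at or under 0 without clone 1, and 11 more fell short of their value by over 1.5 times.

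**Figure D1:**
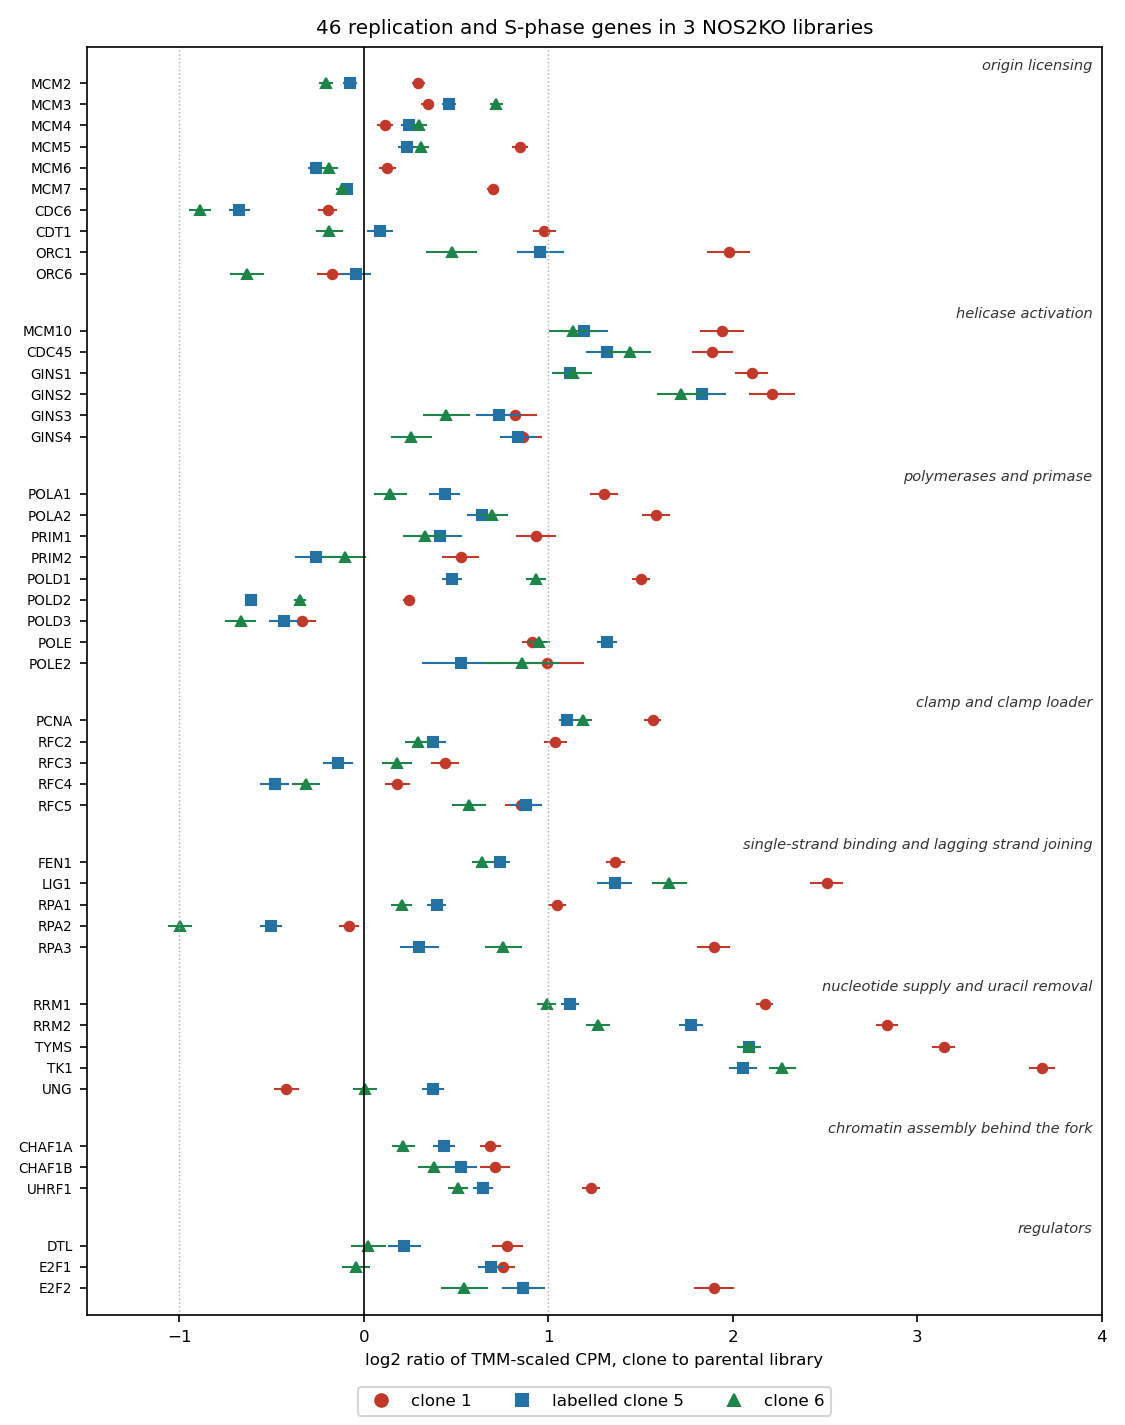
Each row is 1 of the 46 genes, grouped by role, and the horizontal axis is the log2 ratio of TMM-scaled CPM of a clone to the parental library; circles are clone 1, squares the library labelled clone 5 and triangles clone 6, with exact 95% intervals for counting error. Most points lie right of 0, clone 1 is the highest of the 4 libraries in 37 of 46 genes, and the nucleotide supply and helicase activation genes lie farthest right.

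**Figure D2:**
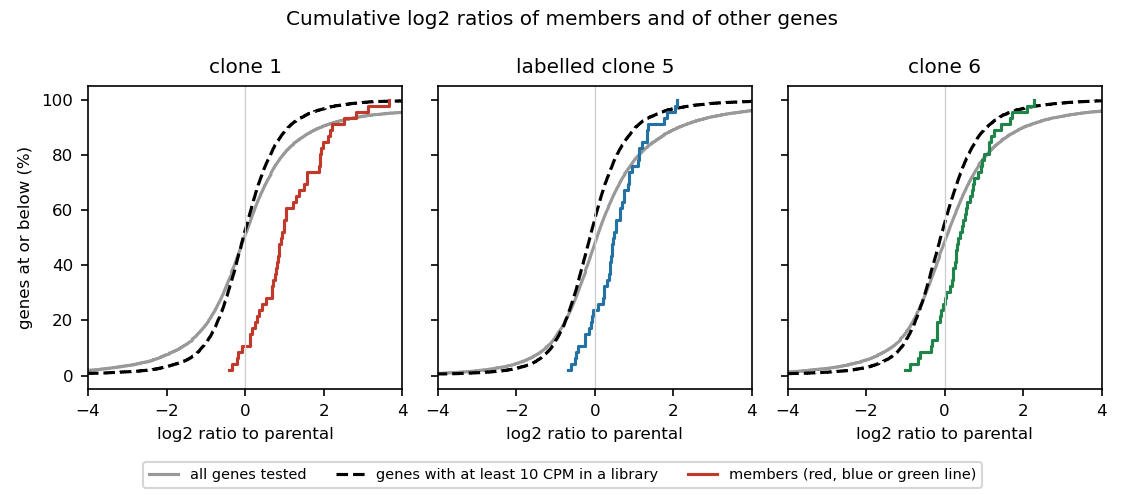
For each clone, the curves give the percentage of genes at or below a log2 ratio to parental; the coloured line is the 46 members, the grey line all genes tested and the dashed line genes that reached 10 CPM in a library. The member curve lies to the right of both others around its median of 0.92 in clone 1, 0.47 in the library labelled 5 and 0.36 in clone 6, and it has no point under -1.

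No member passed an adjusted p under 0.05 in the edgeR quasi-likelihood test with Benjamini-Hochberg adjustment over all 22511 genes, in which 1 gene passed (0.00444%). The lowest adjusted p of a member by that edgeR test was 0.313, for GINS2. At an unadjusted p under 0.05 in that test were 10 members, all higher in NOS2KO. Over all 22511 genes, 1052 were higher and 1538 lower at that threshold. By DESeq2's Wald test, 6 members passed an adjusted p under 0.05, all higher in NOS2KO (CDC45, GINS2, PCNA, LIG1, TYMS and TK1), against 3.13% of genes called higher and 3.05% called lower. The parental cells had no second library, so that only the clones gave the spread (2 residual degrees of freedom), and by exact permutation this design reaches no p below 0.25.

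An unadjusted p under 0.05 in the edgeR test together with a log2 fold change over 1 was met by 10 members, against 4.24% of all genes tested. The 10 were MCM10, CDC45, GINS1, GINS2, PCNA, POLE, LIG1, RRM2, TYMS and TK1. In the other direction no member met it, against 5.34% of all genes tested. Without adjustment over genes, these 10 are not calls. Above parental by more than 1 on the log2 scale in each of the 3 clones were 9 members, those 10 without POLE, against 7.67% of all genes tested. Below parental by that much in each clone were 0 members, against 6.29%.

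**Figure D3:**
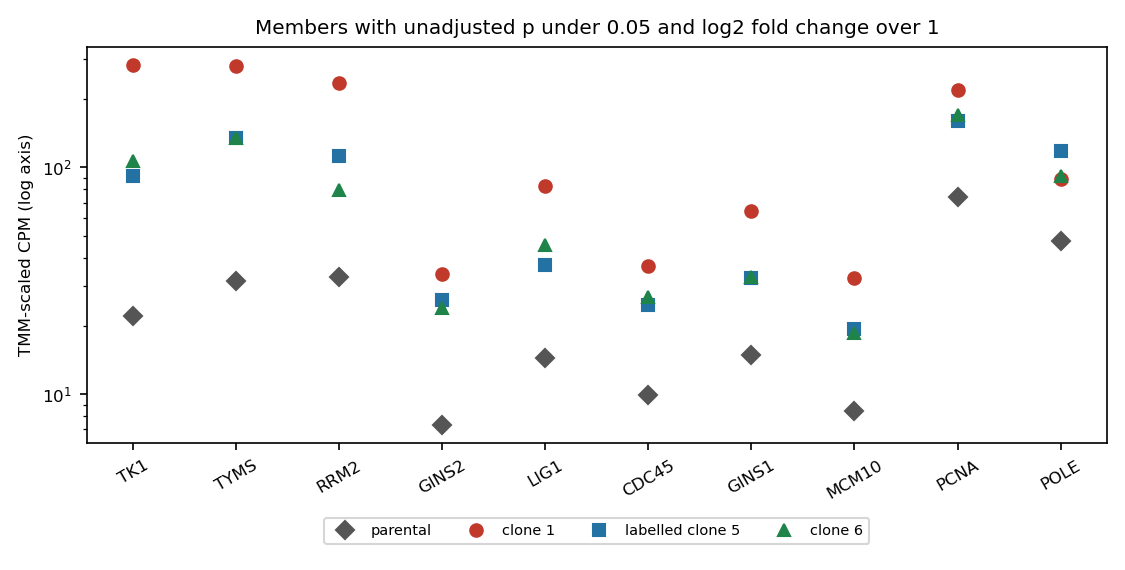
Level of the 10 members that met the unadjusted criterion (p under 0.05, log2 fold change over 1), in TMM-scaled CPM on a log axis; diamonds are the parental library, circles clone 1, squares the library labelled clone 5 and triangles clone 6, 1 library each. The parental library is the lowest for every gene, and TK1 goes from 22.1 CPM to between 92.0 and 283 CPM.

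The largest differences were in nucleotide supply. TK1, the thymidine kinase that salvages thymidine in S phase (ENSG00000167900, chromosome 17 of GRCh38 from 78174075 to 78187233), was at 22.1 CPM in parental cells against 283 in clone 1, 92.0 in the library labelled 5 and 107 in clone 6. Every clone was above parental, and clone 1 was far above the other two. The fitted log2 fold change was 2.86 (SE 0.73), with an adjusted p of 0.367 by edgeR's quasi-likelihood test and 0.00957 by DESeq2. TYMS, the thymidylate synthase that makes dTMP from dUMP (ENSG00000176890, chromosome 18 from 657604 to 673578), was at 31.7 CPM in parental cells against 280 in clone 1, 135 in the library labelled 5 and 135 in clone 6. The library labelled 5 and clone 6 were level with each other, and clone 1 was again the highest. Its log2 fold change was 2.53 (SE 0.54), with an adjusted p of 0.333 by edgeR and 0.00318 by DESeq2. Of the exon bases of TYMS, 26.2% are shared with the antisense genes ENOSF1 and TYMSOS. ENOSF1 was at 42.2 to 62.8 CPM in the 4 libraries, and TYMSOS was at 0.608 CPM in the parental library and 1.15 to 4.68 in the clones. The strand setting of the counting is not given in the sources used here, so reads of TYMS and of these genes may not be told apart in the shared bases.

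RRM2, the small subunit of ribonucleotide reductase that limits dNTP synthesis in S phase (ENSG00000171848, chromosome 2 from 10122328 to 10131419), was at 32.9 CPM in parental cells against 235 in clone 1, 112 in the library labelled 5 and 79.3 in clone 6. The clones did not overlap the parental library but spread widely, and the log2 fold change was 2.11 (SE 0.66). RRM1, the large subunit of the same enzyme, had a log2 fold change of 1.53 (SE 0.57), from 60.8 CPM in the parental library to between 121 and 274 in the clones. UNG, the glycosylase that removes uracil from DNA, stood apart from these 4 genes. It was at 47.5 CPM in parental cells against 35.5 in clone 1, 61.7 in the library labelled 5 and 47.8 in clone 6, a log2 fold change of 0.03 (SE 0.39). Clone 1 was below the parental library and the library labelled clone 5 above it, and without the latter the value was -0.17.

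In helicase activation all 6 members were higher in all 3 clones, with a median log2 fold change of 1.502. GINS2, a subunit of the GINS complex (ENSG00000131153, chromosome 16 from 85676198 to 85690073), was at 7.29 CPM in parental cells against 33.8 in clone 1, 26.0 in the library labelled 5 and 24.0 in clone 6. The 3 clones lay close together, and GINS2 had the lowest unadjusted p of the 46 genes. Its log2 fold change was 1.94 (SE 0.35), with an adjusted p of 0.313 by edgeR and 0.00083 by DESeq2. CDC45, the helicase partner of MCM and GINS (ENSG00000093009, chromosome 22 from 19479459 to 19520612), was at 9.91 CPM in parental cells against 36.7 in clone 1, 24.7 in the library labelled 5 and 26.9 in clone 6. The log2 fold change of CDC45 was 1.57 (SE 0.36), with an adjusted p of 0.334 by edgeR and 0.0185 by DESeq2. As with GINS2, the 3 clones stood together above the parental library.

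GINS1 (ENSG00000101003, chromosome 20 from 25407727 to 25452628) was at 14.9 CPM in parental cells against 64.2 in clone 1, 32.4 in the library labelled 5 and 32.9 in clone 6, a log2 fold change of 1.53 (SE 0.51). MCM10, which binds the MCM ring and is needed for origin firing (ENSG00000065328, chromosome 10 from 13161554 to 13211104), was at 8.45 CPM in parental cells against 32.5 in clone 1, 19.4 in the library labelled 5 and 18.6 in clone 6. For MCM10 the log2 fold change was 1.47 (SE 0.45). Both genes were highest in clone 1 and nearly level in the other two clones. The lowest of the 6 was GINS3, at 10.1 CPM in parental cells against 17.8 in clone 1, 16.8 in the library labelled 5 and 13.8 in clone 6 (log2 fold change 0.67, SE 0.35). GINS3 and GINS4 share 10.9% and 23.6% of their exon bases with other annotated genes.

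Values in origin licensing were smaller. Its 10 members had a median log2 fold change of 0.22, which was -0.07 without clone 1, and none was over 1 in all 3 clones. MCM2, a subunit of the MCM ring, was at 164 CPM in parental cells against 201 in clone 1, 156 in the library labelled 5 and 142 in clone 6. The parental library lay among the clones, the log2 fold change was 0.02 (SE 0.33), and without clone 1 it was -0.14. The 6 ring subunits MCM2 to MCM7 had log2 fold changes of -0.10 (MCM6) to 0.52 (MCM3), and MCM3, MCM4 and MCM5 were higher in all 3 clones. MCM7 had 0.21, which was -0.10 without clone 1.

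The lowest value of the 46 genes was that of CDC6, an ATPase that loads the MCM ring with ORC. CDC6 was at 77.5 CPM in parental cells against 67.7 in clone 1, 48.5 in the library labelled 5 and 41.9 in clone 6, a log2 fold change of -0.56 (SE 0.37) with an adjusted p of 0.582 by edgeR's quasi-likelihood test. All 3 clones were below the parental library, clone 1 the least. CDT1, which loads MCM with CDC6, was at 38.9 CPM in parental cells against 76.7 in clone 1, 41.4 in the library labelled 5 and 34.2 in clone 6. Its log2 fold change of 0.38 (SE 0.53) rested on clone 1, and without that clone it was -0.04. ORC1, the origin recognition subunit whose level follows the cell cycle, was at 8.71 CPM in parental cells against 34.3 in clone 1, 16.9 in the library labelled 5 and 12.1 in clone 6. All clones were above parental but over a wide range, so that a log2 fold change of 1.28 came with an SE of 0.66. ORC6, another subunit, was lower in all 3 clones by 0.04 to 0.63 on the log2 scale.

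Among the 9 polymerase and primase genes the median log2 fold change was 0.72, and 0.38 without clone 1. POLE, the catalytic subunit of the leading strand polymerase (ENSG00000177084, chromosome 12 from 132623753 to 132687365), was at 47.2 CPM in parental cells against 89.0 in clone 1, 118 in the library labelled 5 and 91.2 in clone 6. It was one of 3 members with their highest level in the library labelled clone 5. Its log2 fold change was 1.07 (SE 0.31), and with clone 5 or clone 6 left out it no longer met the unadjusted criterion, which the other 9 members met with any clone left out. The lagging strand polymerase genes POLD1 and POLD3 lay apart. POLD1, the catalytic subunit, had a log2 fold change of 1.03 (SE 0.46), while POLD3, an accessory subunit, had the lowest value of the 9. POLD3 was at 34.2 CPM in parental cells against 27.2 in clone 1, 25.4 in the library labelled 5 and 21.6 in clone 6, a log2 fold change of -0.47 (SE 0.30).

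Of the other polymerase genes, POLA1 and POLA2, subunits of the polymerase that starts each strand, had log2 fold changes of 0.72 and 1.04, and the primase genes PRIM1 and PRIM2 had 0.59 and 0.10, the latter -0.17 without clone 1. POLE2 was the least abundant member, with 306 counts in the parental library, and its log2 fold change was 0.81 (SE 0.46). POLD2 had -0.19 (SE 0.43), above parental in clone 1 and below it in the other clones.

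PCNA, the sliding clamp that holds polymerases on DNA (ENSG00000132646, chromosome 20 from 5114953 to 5126626), was at 74.3 CPM in parental cells against 220 in clone 1, 160 in the library labelled 5 and 170 in clone 6. The clones lay closer to each other than to the parental library. The log2 fold change was 1.30 (SE 0.32), with an adjusted p of 0.343 by edgeR and 0.0383 by DESeq2. The RFC genes, whose products load the clamp, showed smaller differences. RFC4 was at 39.1 CPM in parental cells against 44.3 in clone 1, 27.9 in the library labelled 5 and 31.5 in clone 6, a log2 fold change of -0.18 (SE 0.37), and RFC2, RFC3 and RFC5 had 0.61, 0.18 and 0.78. The parental level of RFC4 lay among those of the clones. RFC5 shares 10.65% of its exon bases with other annotated genes.

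LIG1, the ligase that seals Okazaki fragments (ENSG00000105486, chromosome 19 from 48115445 to 48170603), was at 14.5 CPM in parental cells against 82.4 in clone 1, 37.2 in the library labelled 5 and 45.6 in clone 6. All clones were well above parental, and clone 1 was the highest. Its log2 fold change was 1.93 (SE 0.52), with an adjusted p of 0.367 by edgeR and 0.0399 by DESeq2. FEN1, the nuclease that trims Okazaki fragments before ligation, had a log2 fold change of 0.95 (SE 0.39) and was higher in all 3 clones. The 3 subunits of RPA, which coats single-stranded DNA, differed in direction. RPA2 was at 68.5 CPM in parental cells against 64.9 in clone 1, 48.4 in the library labelled 5 and 34.3 in clone 6, a log2 fold change of -0.48 (SE 0.42), while RPA1 and RPA3 had 0.60 and 1.15 and were higher in all 3 clones.

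The 3 genes of chromatin assembly were higher in all 3 clones by smaller amounts. CHAF1A, the large subunit of the histone chaperone CAF-1, was at 51.9 CPM in parental cells against 83.5 in clone 1, 70.1 in the library labelled 5 and 60.3 in clone 6 (log2 fold change 0.46, SE 0.31), and CHAF1B had 0.55. UHRF1, which brings the maintenance DNA methyltransferase to newly copied DNA, was at 61.1 CPM in parental cells against 144 in clone 1, 95.7 in the library labelled 5 and 87.0 in clone 6. The fitted log2 fold change was 0.83 (SE 0.39).

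Of the regulators, E2F1, an activating factor of the G1 to S step, was at 32.8 CPM in parental cells against 55.2 in clone 1, 52.9 in the library labelled 5 and 31.8 in clone 6. Clone 6 was level with the parental library, and the log2 fold change was 0.51 (SE 0.41). E2F2, of the same activating group, was at 10.2 CPM in parental cells against 38.1 in clone 1, 18.6 in the library labelled 5 and 14.9 in clone 6, with a log2 fold change of 1.22 (SE 0.62). DTL, which directs the destruction of CDT1 in S phase, was at 21.5 CPM in parental cells against 36.8 in clone 1, 25.0 in the library labelled 5 and 21.9 in clone 6 (log2 fold change 0.38, SE 0.41). For all 3 regulators the level was highest in clone 1.

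Levels per exon length (TPM, which sum to the same total in every library) gave the order of the genes within a library. The 46 genes summed to 2396 TPM in parental cells against 4535 in clone 1, 3462 in the library labelled 5 and 3131 in clone 6. In the parental library the most abundant were POLD2 at 275 TPM, MCM7 at 223 and PCNA at 191, while TYMS at 48.6 and TK1 at 45.1 ranked 17 and 20 of 46. In clone 1 the order was led by TK1 at 499 TPM, PCNA at 491 and TYMS at 372. The gain in the sum was thus uneven. In clone 1 it was small for MCM2, at 135 TPM against 127 in the parental library. MCM7 went from 223 TPM in the parental library to 314 in clone 1. In the library labelled 5 and clone 6, MCM2 was at 127 and 106 TPM, and MCM7 at 220 and 198. The median member TPM was 41.0 in parental cells, 50.2 in clone 1, 40.5 in the library labelled 5 and 37.8 in clone 6. The 17 pseudogene copies of members in the annotation were all under 0.05 CPM in every library.

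The promoter letters of the members were read from the RefSeq table of GRCh38.p14, from 250 bases before to 50 bases after each gene's start, which matched 40 of the 46 members. E2F-type letters, a known core of E2F sites written here in 4 forms (TTTCCCGC, TTTCGCGC, TTTGCCGC and TTTGGCGC, on either strand), were found in 22 of the 40 (55.0%, exact 95% interval 38.5% to 70.7%). The same letters were in 3.99% of all 27305 genes of the table and in 6.07% of the 12997 tested genes matched to it. In the 250 bases before the start alone the shares were 42.5% of members, 3.40% and 5.16%. CCAAT letters, the core of the site of the factor NF-Y, were in 62.5% of members, 39.7% of all genes and 42.8% of tested genes. GGGCGG, a core of SP1-type sites, was in 72.5%, 48.3% and 71.4%, so that the members were near the tested genes there. E2F-type letters overlapped GGGCGG in LIG1 and PCNA, and CCAAT in MCM7.

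The median log2 fold change was 0.70 for the 22 members with E2F-type letters and 0.69 for the 18 without. Whether these letters bear on the levels was not tested. MCM2, CDC6 and UNG hold them, and so do TYMS, LIG1, PCNA, GINS1, GINS2 and POLE, while TK1, RRM2, CDC45 and MCM10 do not in this window. The stretches below belong to those of the 10 leading members whose letters lie before a RefSeq start and outside exons of GENCODE release 29, and are shown to let the letters be seen beside the levels given above. The capitals mark E2F-type letters in PCNA and CCAAT or its complement ATTGG in the others, each sequence is read 5′ to 3′ on the strand of the gene in GRCh38.p14, and a match is a description of the letters, not a mapped site. The GINS2 stretch lies before the RefSeq start used here but inside the longer span of GINS2 in the deposited files, given above. The E2F-type letters of GINS1, GINS2 and POLE lie outside the stretches shown.
PCNA (chr20:5126648-5126707, minus strand): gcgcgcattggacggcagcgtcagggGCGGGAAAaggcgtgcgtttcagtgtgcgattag
GINS2 (chr16:85689081-85689140, minus strand): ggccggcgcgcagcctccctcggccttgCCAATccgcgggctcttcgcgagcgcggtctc
GINS1 (chr20:25407613-25407672, plus strand): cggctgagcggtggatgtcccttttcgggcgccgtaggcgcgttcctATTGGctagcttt
MCM10 (chr10:13161425-13161484, plus strand): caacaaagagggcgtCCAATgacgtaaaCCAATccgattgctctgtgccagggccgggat
POLE (chr12:132687418-132687477, minus strand): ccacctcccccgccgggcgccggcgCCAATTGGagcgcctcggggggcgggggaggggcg

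Replication factors outside the 46 genes were less uniform. Of 28 of them, 11 were higher and 7 lower in all 3 clones, with a median log2 fold change of 0.20, which was -0.05 without clone 1. Over all genes tested the shares were 28.6% and 30.5%, and 7 of 28 is 25.0%. An unadjusted p under 0.05 in the edgeR test with a log2 fold change over 1 in size was met by 5 above parental and 2 below. These are 17.9% and 7.14%, against 4.24% and 5.34% of all genes tested, so that the share below was near that of all genes. Above were RNASEH2C of ribonuclease H2 (log2 fold change 1.69), the fork protein CLSPN (1.64), the nuclease DNA2 (1.38), the firing factor TICRR (1.30) and RECQL4 (1.21). Below were TOP1, the topoisomerase that relaxes DNA ahead of the fork, and TIPIN, a fork protection protein. TOP1 was at 459 CPM in parental cells against 207 in clone 1, 122 in the library labelled 5 and 157 in clone 6 (log2 fold change -1.502, SE 0.40), and TIPIN had -1.29 (SE 0.44). Both were below parental in every clone. RNASEH2C shares 30.2% of its exon bases with KAT5, and TIPIN shares 21.0% with RPL9P25.

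The other 17 genes of nucleotide supply had a median log2 fold change of -0.04, which was -0.34 without clone 1 and 0.03 without clone 5. The lowest of the 17 was CAD, the first enzyme of pyrimidine synthesis, at 157 CPM in parental cells against 143 in clone 1, 75.6 in the library labelled 5 and 62.6 in clone 6, a log2 fold change of -0.75 (SE 0.54). CAD in clone 1 was near parental, and in the other two clones well below it.

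Among the 14 other E2F and pocket protein genes the median log2 fold change was -0.24. E2F5, a repressing E2F, was at 30.1 CPM in parental cells against 5.90 in clone 1, 4.92 in the library labelled 5 and 5.72 in clone 6. The clones agreed closely and lay far below parental (log2 fold change -2.45, SE 0.36, adjusted p of 0.259 by edgeR and 5.42e-07 by DESeq2). E2F5 shares 18.6% of its exon bases with AC011773.1 and C8orf59. E2F8, an atypical E2F, was at 2.53 CPM in the parental library and 8.41 to 10.3 in the clones (log2 fold change 1.84). MYBL2, an S phase and mitosis factor, had a log2 fold change of 2.32 with an SE of 0.85, from 41.8 CPM in parental cells to 396 in clone 1, 130 in the library labelled 5 and 101 in clone 6.

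Of the 19 kinases, cyclins and inhibitors of the G1 to S step, 4 were above parental and 3 below by the unadjusted criterion. These are 21.05% and 15.79%, against 4.24% and 5.34% of all genes tested. CDKN2C, an inhibitor of CDK4 and CDK6, was at 21.0 CPM in parental cells against 278 in clone 1, 149 in the library labelled 5 and 103 in clone 6 (log2 fold change 3.07, SE 0.61, adjusted p of 0.332 by edgeR and 0.000674 by DESeq2). CDK2, the S phase kinase, and the inhibitors CDKN1C and CDKN2D had 1.21, 2.11 and 2.04. CDK2 shares 16.8% of its exon bases with AC025162.1 and PMEL. CDK6 was at 100 CPM in the parental library and 41.3 to 49.8 in the clones (log2 fold change -1.18). CDKN2A and CDKN2B, of the same inhibitor family as CDKN2C, were at 1.18 and 0.553 CPM in the parental library and at 0.178 CPM or less in the clones. Both are among the 3 below parental, but with few counts. The parental library had 107 counts of CDKN2A and 50 of CDKN2B, and the clones 1 to 19 and 3 to 13. The floor of 3 counts was not exceeded by CDKN2A in clone 6 or by CDKN2B in the library labelled 5. The cyclin CCNE1 had -0.21 (SE 0.53), was below parental in clone 1 alone and had 0.04 without it. The cyclin CCNE2 had 1.39 (SE 0.68), and 37.1% of its exon bases are shared with INTS8 and AC087752.4. CDKN1A, a p53 target, was at 31.5 CPM in parental cells against 55.2 in clone 1, 102 in the library labelled 5 and 23.0 in clone 6, so that the clones lay on both sides of parental.

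In the 30 genes of mitosis, as in the 46 genes of replication, clone 1 had the highest median log2 ratio. Only the order of the library labelled 5 and clone 6 differed. All 30 were highest in clone 1, against 25.2% of all genes tested and 29.85% of those that reached 10 CPM. Their median log2 ratio was 2.39 in clone 1, 0.47 in the library labelled 5 and 0.68 in clone 6. The members of single-strand binding and lagging strand joining had the same order (1.365, 0.396 and 0.643). KIF20A, a kinesin of cytokinesis, was at 24.3 CPM in parental cells against 494 in clone 1, 86.1 in the library labelled 5 and 100.3 in clone 6, and MKI67, the Ki-67 antigen, was at 59.8, 369, 145 and 139. CDK1 and AURKB met the unadjusted criterion (6.67% of the list, against 4.24% of all genes tested), with log2 fold changes of 2.19 and 1.79. TOP2A had 1.66 (SE 0.93) and CENPE, the lowest of the list, 0.72 (SE 0.60). Without clone 1 the value was 0.68 for TOP2A and 0.20 for CENPE, and the median of the list went from 1.49 to 0.60. In clone 1 the median of mitosis was above that of the members, and in the library labelled clone 5 the medians were equal to 2 decimals; this comparison of medians was not tested.

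Among 26 genes of the replication checkpoint and recombination, the median log2 fold change was 0.31, which was -0.01 without clone 1, and 20 were highest in clone 1. RAD54L and EXO1, both of homologous recombination, were above parental by the unadjusted criterion (7.69% of the list, against 4.24% of all genes tested). Their log2 fold changes were 1.93 (SE 0.45) and 1.73 (SE 0.39), and RAD54L shares 25.1% of its exon bases with LRRC41. CHEK1, the checkpoint kinase, had 0.59 (SE 0.56, and 0.13 without clone 1), and BRCA2, the lowest, -1.14 (SE 0.68). Of 7 genes of histone supply and DNA methylation copying, the histone chaperone ASF1B was the highest at 1.86 (SE 0.52) and ASF1A the lowest at -0.06 (SE 0.42, and 0.04 with upper quartile scaling). These 2 genes encode related chaperones of histones H3 and H4.

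**Figure D4:**
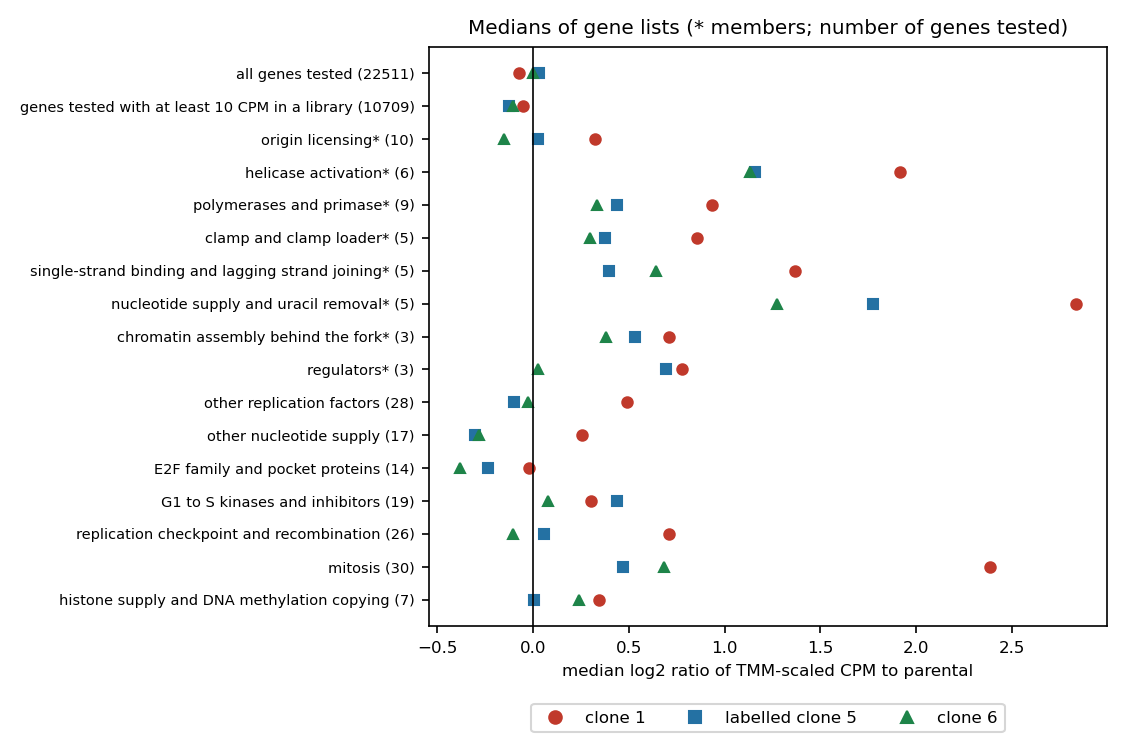
Each row is a list of genes with the number tested, those marked with an asterisk being roles of the 46 members, and the horizontal axis is the median log2 ratio of TMM-scaled CPM to the parental library; circles are clone 1, squares the library labelled clone 5 and triangles clone 6. Nucleotide supply and helicase activation lie to the right in every clone, origin licensing lies near 0, and mitosis spreads most between clone 1 (2.39) and the others (0.47 and 0.68).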

How the data were processed

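Poly(A) mRNA of 4 cultures of SUM159 cells was made into NEBNext Ultra II libraries and read as paired ends. The submitters' processing notes name bcl2fastq 2.17, Trimmomatic 0.36, STAR 2.5.2b, featureCounts of Subread 1.5.2, DESeq2 and GRCh38, and the strand setting is not given in the sources used here. The files the authors deposited hold unnormalized counts of each gene, with exon coordinates and the exon length (in bases) of each gene. Of 57500 identifiers, 56898 had a GENCODE 29 symbol, and 54784 had the same start and end there.

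The counts were fitted in R 4.3.3 with edgeR 4.0.16 (filterByExpr, TMM, glmQLFit, glmQLFTest) with Benjamini-Hochberg adjustment over 22511 genes. DESeq2 1.42.0 was an alternative. Fold changes use the mean fitted to the clones. Ratios of 1 clone to parental carry exact Clopper-Pearson 95% intervals, which, like the floor of 3 counts (0.0246 to 0.0332 CPM), cover counting error only. TPM used the deposited exon length. Nothing states separate cultures of 1 clone, so p-values measure the spread between clones. The fit, the intervals and the letter search were tested on simulated data. Other steps used Python 3.11.15, numpy 2.4.6, pandas 2.3.3, scipy 1.17.1 and matplotlib 3.10.9.

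The members and lists were chosen with earlier results of these data known. Values are given for MCM2, PCNA, RRM2, TYMS, CDT1, E2F1 and E2F2; for the lowest and highest member of each role; for members with an unadjusted p under 0.05 or a log2 ratio over 1 in each of the 3 clones; and, of other lists, for the lowest, the highest, those meeting the unadjusted criterion (p under 0.05, log2 fold change over 1 in size), CHEK1, MKI67, TOP2A, CCNE1, CCNE2, CDKN1A and NOS2. Other members and blood cell markers were named after their values were seen. Alternatives were scaling by library size, upper quartile or RLE, no filter, a minimum of 1 CPM, DESeq2, robust and bias-adjusted estimation, a prior count of 0.5 and each clone left out or alone. Some genes that these rules name are not reported here.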

Additional observations from a re-analysis of the deposited data

How the results depend on the processing

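The count of all genes at an adjusted p under 0.05, 1 in edgeR, was 6 with no filter, 5 with bias-adjusted quasi-likelihood, 1095 with DESeq2 and 0 to 0 with a clone left out, and of the members 6 passed with DESeq2 and 0 under each other setting, with 10 to 14 members at an unadjusted p under 0.05. Members meeting the unadjusted criterion numbered 10 to 12 over all settings, while over all genes the count was 1466 to 3399 with a clone left out, the highest without clone 1. The median log2 fold change of the members was 0.98 for clone 1 alone. Members lower in all remaining clones numbered 4 to 10 with a clone left out, and the 10 came without clone 1. Fewer clones have to agree in these counts than in the main one, and their share over all genes tested was not taken. For the 10 to 14 members at an unadjusted p under 0.05, the count over all genes was taken in the main setting alone. At 0.58 on the log2 scale, 33 members in clone 1 passed, all above parental (71.7%, against 26.7% of all genes tested, of which 30.9% were below). In the library labelled 5, 22 passed (20 above, or 43.5%, against 31.0%, and 2 below, against 25.5%). In clone 6, 21 passed (17 above, or 37.0%, against 29.4%, and 4 below, against 27.8%). The share above was nearest to that of all genes tested in clone 6. With a clone left out, log2 fold changes ranged from -0.14 to 0.13 for MCM2, -0.0396 to 0.61 for CDT1, -0.17 to 0.21 for UNG, -0.37 to 0.0431 for CCNE1 and -0.19 to 0.17 for ASF1A, which was 0.0356 with upper quartile scaling. That scaling moved the median of all genes from 0.10 to 0.20. Where no value above shows it, the cause was not tested. No paired analysis was possible because the parental cells had no second library and the numbers of the NOS2KO libraries are those of clones. The lowest count of a member in a library was 306.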
